A study of Mus musculus with 32 samples.

Results

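The comparison was the genotype by cisplatin interaction at 72 h in mouse kidney, that is, how far the change from saline to 72 h after cisplatin differed between miR-155-/- and wild type mice. It used 16 of the 32 arrays of the series, 4 arrays in each of 4 groups, and every gene that could be measured. For each gene the wild type response (Kidney_C57BL/6_72hr minus Kidney_C57BL/6_0hr) was subtracted from the miR-155-/- response (Kidney_miR-155-/-_72hr minus Kidney_miR-155-/-_0hr). The same number is the genotype difference at 72 h minus the genotype difference in the saline groups. A gene can therefore reach a large interaction through its cisplatin groups, through its saline groups, or through both, and each effect below is split that way. In all, 23743 genes were tested, of which 16454 carried a symbol.

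All mice were males of 12 to 16 weeks. The wild type mice were C57BL/6 from Charles River Laboratories, and the miR-155-/- mice were of the line B6.Cg-Mir155tm1.1Rsky/J, which came in the first place from The Jackson Laboratory. Genotype and supplier therefore cannot be told apart. The 72 h groups had received 1 intraperitoneal cisplatin dose of 20 mg/kg. The controls of both genotypes are the 0 h groups, injected with saline, so cisplatin and elapsed time cannot be told apart either. Each array held RNA of a separate animal, taken from homogenised whole kidney with an RNA integrity number above 8. In such bulk tissue, fewer cells of a type and less RNA per cell cannot be told apart.

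MicroRNAs are short RNAs that pair, mainly through a seed near their 5′ end, with messenger RNAs and lower their stability or translation. miR-155 is processed from a host transcript that is induced in activated leukocytes, and it is best known for its part in inflammation and immunity. Cisplatin enters proximal tubule cells, crosslinks DNA, activates p53 and injures the tubule; surviving tubule cells can later re-enter the cell cycle, and leukocytes are recruited. miR-155-5p, a mature strand that the knockout line lacks, is encoded on the plus strand of chromosome 16 (chr16:84714143-84714165, GRCm38.p6, RefSeq). It is shown 5′ to 3′ with its seed, bases 2 to 8, in capitals.
mmu-miR-155-5p: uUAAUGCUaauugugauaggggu
No probe could be assigned to the host transcript, so the genotype labels were not checked against it here.

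Signals were log2 intensities relative to the 75th percentile of each array, so a level of 0 is that percentile. The percentile itself lay between 1662 and 2389 intensity units on the 16 arrays. Between 67.9 and 81.5% of probes were well above background, and 0 spots were saturated. The 8 kidney marker genes averaged 4.22 to 5.71 per array, so every array carried the kidney signature. The arrays were scanned in 2 sessions, each of which held all 4 groups, and lay on 8 slides, none of which did. The groups were uneven between sessions: session 1 held 1 saline array of each genotype, and session 2 held 1 wild type array at 72 h. In the miR-155-/- 72 h group, array 4 lay apart from the other 3 on many of the genes below, and in wild type saline array 2 was often the highest. Some of the results below are also given without these arrays.

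The interaction was called for 50 genes at an adjusted p under 0.05 (limma with Benjamini-Hochberg adjustment), or 0.211% of those tested. The response was higher in miR-155-/- kidney for 41 of them (0.173%) and lower for 9 (0.0379%), and 43 of the 50 interactions were at least 2-fold. At an unadjusted p under 0.05 there were 1797 genes (7.57%), 1104 higher (4.65%) and 693 lower (2.92%). By comparison, the response to cisplatin itself was called for 6018 genes in wild type (25.3%) and for 8364 in miR-155-/- kidney (35.2%). The genotypes differed for 27 genes in the saline groups (0.114%) and for 171 at 72 h (0.72%). The median interaction over all tested genes was -0.04.

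Genes with a higher interaction mostly moved in opposite directions in the estimates. They were chosen by the miR-155-/- response minus the wild type response, which favours opposite signs, so the counts are a description. Of the 41, 26 fell in wild type kidney and 2 rose, whereas 31 rose in miR-155-/- kidney and 0 fell. Over all tested genes, 12.5% rose and 12.8% fell in wild type, and 17.7% rose and 17.5% fell in miR-155-/-. For 16 genes both changes were called, a fall in wild type and a rise in miR-155-/-, for 13 only the rise and for 10 only the fall. Their median response was -0.99 in wild type and 0.93 in miR-155-/-, both on the log2 scale. Of the 9 genes with a lower interaction, 3 rose and 3 fell in both genotypes.

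**Figure D1:**
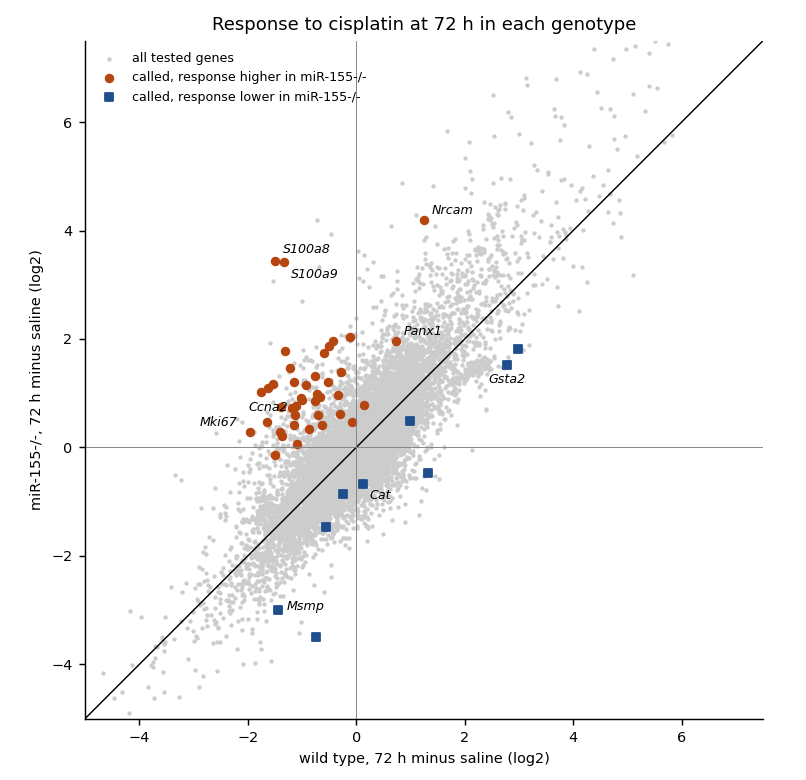
Log2 response to cisplatin at 72 h in wild type kidney (x axis) and in miR-155-/- kidney (y axis), 1 point per gene, with 23743 tested genes in grey, the 41 called genes with a higher interaction as circles and the 9 with a lower one as squares; the diagonal marks equal responses, and 32 tested genes lie beyond the axes. Most circles sit left of 0 on the x axis and above 0 on the y axis, so they went down in wild type and up in miR-155-/- kidney.

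In the estimates, both the saline and the 72 h groups contributed to nearly all of these effects. The saline share of an interaction is the percentage of it that the genotype difference in the saline groups supplies with its sign turned. As the genes were chosen by the 72 h genotype difference minus the saline one, which favours opposite signs, the shares are a description. Over the 50 called genes the median share was 45.7%, from -3.73 to 90.4%. Among the 41 higher genes, 37 had a share between 25 and 75%, and 4 (Rmdn2, Vim, Angptl7 and Nrcam) one below 25%. Their median genotype difference, miR-155-/- minus wild type, was -0.87 in saline and 1.07 at 72 h. The 9 lower genes owed more to saline, with a median share of 65.7%, and 3 of them (Gsta2, Gm10639 and Msmp) had a share above 75%.

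Each end was also tested alone. Of the 41 higher genes, 3 had a called genotype difference in saline, 22 had one at 72 h and 1 had both, while 17 had neither. Of the 9 lower genes, 5 were called in saline and 1 at 72 h. Over all tested genes, 0.0884% were called higher and 0.0253% lower in miR-155-/- saline, and 0.598% higher and 0.122% lower at 72 h. The genotype groups did not overlap in saline for 28 of the 41 (4.28% of all tested genes), and at 72 h likewise for 28 (12.8%); for 18 they did so at both (1.02%). Since these values enter the interaction test, the counts are a description of the called genes and no separate evidence. The fit gave each gene 1 estimate of the spread for all groups. The standard error of its genotype difference was therefore the same at both times, with a median of 0.24 over the called genes. The groups themselves could spread unequally. The SD of S100a8, for example, was 1.34 in wild type saline, 0.55 in miR-155-/- saline, 0.53 in wild type at 72 h and 1.18 in miR-155-/- at 72 h.

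**Figure D2:**
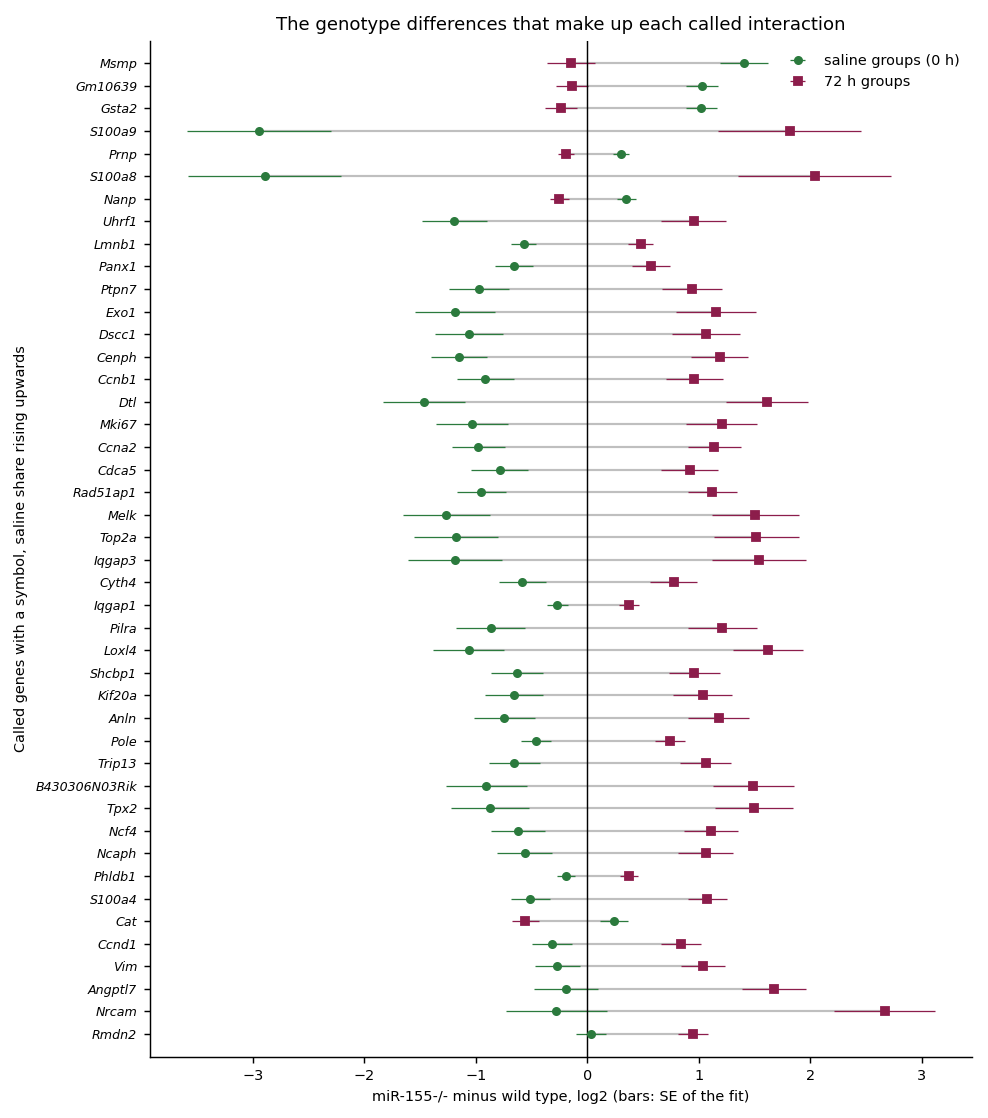
Genotype difference (log2, miR-155-/- minus wild type) in the saline groups (circles) and in the 72 h groups (squares) for 44 called genes with a symbol, ordered by saline share; bars are standard errors of the fit and the length of the grey line is the interaction. The proliferation genes in the middle have both ends away from 0, Nrcam, Angptl7, Vim and Rmdn2 at the bottom have a saline difference near 0, and Msmp, Gm10639 and Gsta2 at the top have a 72 h difference near 0.

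The levels at 24 and 48 h enter neither end of the interaction, although those arrays share in the estimate of the spread behind its calls. For the 41 higher genes the median genotype difference was -0.09 at 24 h and 0.33 at 48 h, and it was above 0 for 11 and 35 of them. None of the 41 was called at either time (0.08% and 0.101% of all tested genes were: 0.0632% higher and 0.0168% lower at 24 h, 0.0927% and 0.00842% at 48 h). For the 9 lower genes the medians were 0.04 and -0.09, again with 0 called.

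**Figure D3:**
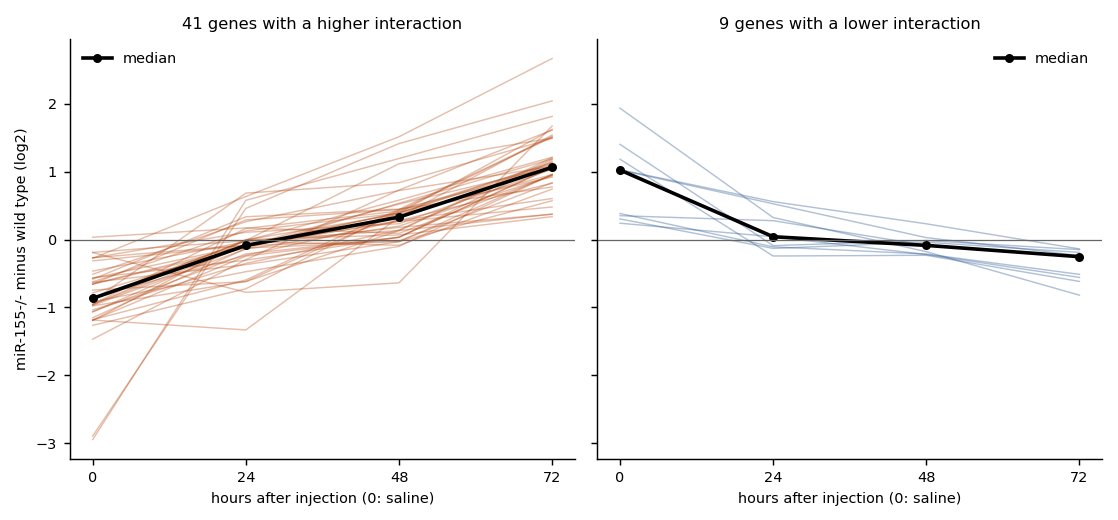
Genotype difference (log2, miR-155-/- minus wild type) in saline (0 h) and at 24, 48 and 72 h after cisplatin for the 41 called genes with a higher interaction (left) and the 9 with a lower one (right), 1 thin line per gene and the median in black. The median of the left group goes from -0.87 through -0.09 and 0.33 to 1.07, of which the first and last are parts of the interaction itself.

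Among the gene lists, that of S phase and mitosis held the most called genes. The lists were chosen with earlier results of these data known, so the counts are a description and no separate evidence. Of the 23 tested members of a list of S phase and mitosis genes, 5 were called higher (Ccna2, Ccnb1, Top2a, Mki67 and Ccnd1) and 0 lower, beside 0.211% of all genes called. The list's median interaction was 1.32, against -0.04 over all genes. Of the 23, 20 had an unadjusted p under 0.05, all of them higher, beside 4.65% of all tested genes. Its median response was -0.75 in wild type and 0.60 in miR-155-/-, and its median genotype difference was -0.59 in saline and 0.71 at 72 h. Mean levels over the list were -1.79 to -1.22 in wild type saline, -2.17 to -1.96 in miR-155-/- saline, -2.30 to -2.07 in wild type at 72 h and -2.04 to -1.19 in miR-155-/- at 72 h. The count of 5 depended on single arrays: it was 1 without any of 7 arrays (wild type saline 2, miR-155-/- saline 1, wild type 72 h 1 or 3, miR-155-/- 72 h 1, 2 or 3), 2 or 3 without 3 others (wild type saline 4, miR-155-/- saline 3, wild type 72 h 2), and 12 without miR-155-/- 72 h array 4. Without wild type saline array 2 and miR-155-/- 72 h array 4 together it was 9. After normexp background correction, and within either scan session alone, 0 of the 23 were called.

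Ccna2 encodes cyclin A2, which drives S phase and entry into mitosis. Its levels were -3.10, -2.69, -3.03 and -2.18 in wild type saline and -3.96, -3.56, -3.83 and -3.55 in miR-155-/- saline. At 72 h they were -4.37, -4.23, -4.84 and -4.16 in wild type and -3.05, -2.96, -2.97 and -4.07 in miR-155-/-. The genotypes did not overlap at either time, and array 4 of miR-155-/- at 72 h lay just above the wild type arrays. Ccna2 fell by 1.65 (log2) in wild type, while its miR-155-/- response of 0.46 was not called. The interaction was 2.11 ± 0.34 (SE), adjusted p = 0.00293 by limma, with a saline share of 46.2%.

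Top2a, the topoisomerase that untangles replicated chromosomes, stood at -4.57, -3.21, -4.72 and -3.58 in wild type saline and at -5.57, -5.36, -5.12 and -4.75 in miR-155-/- saline. The 72 h values were -5.78, -5.37, -6.17 and -4.89 in wild type and -3.84, -3.55, -3.38 and -5.37 in miR-155-/-. Only array 4 of the last group overlapped wild type at 72 h, and in saline the genotypes did not overlap by a narrow margin. The interaction was 2.70 ± 0.53, adjusted p = 0.0255 by limma, with a saline share of 43.8%. Mki67, which encodes the proliferation antigen Ki-67, showed the same arrangement. It fell by 1.95 (log2) in wild type, and miR-155-/- 72 h array 4 was at -3.26 where the other 3 lay between -1.67 and -1.61. Its interaction was 2.24 ± 0.45, with a share of 46.2%. Top2a was called in 8 and Mki67 in 5 of the 16 analyses that left out 1 array.

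Dtl, a substrate receptor of the ubiquitin ligase that limits replication licensing, had the largest interaction of the proliferation genes named here, 3.08 ± 0.52 (8.46-fold; adjusted p = 0.00553, limma). Its levels were -5.33, -3.89, -5.34 and -4.88 in wild type saline and -6.56, -6.44, -6.34 and -5.97 in miR-155-/- saline. At 72 h wild type had -6.17, -6.04, -6.53 and -5.93, and miR-155-/- had -4.01, -4.40, -4.05 and -5.77. The genotypes were separate at both times, and the saline share was 47.6%. After normexp background correction the Dtl interaction was 1.81 and was not called.

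Rad51ap1, a DNA-binding protein of homologous recombination, was at -3.98, -3.03, -3.93 and -3.58 in wild type saline and at -4.57, -4.43, -4.86 and -4.46 in miR-155-/- saline. At 72 h it was at -4.64, -4.46, -4.61 and -4.50 in wild type and at -3.26, -3.30, -3.10 and -4.05 in miR-155-/-. The groups were separate at both times, in opposite order. It fell by 0.92 (log2) in wild type and rose by 1.15 in miR-155-/- (interaction 2.07 ± 0.31). The kinetochore gene Cenph rose 3.36-fold in miR-155-/-, with an interaction of 2.34 ± 0.36. Pole, the catalytic subunit of DNA polymerase epsilon, fell by 0.87 (log2) in wild type (interaction 1.21 ± 0.19). With the mean of its probes the Pole interaction was 0.63, so its size rests on the probe used. Lmnb1, lamin B1 of the nuclear envelope, was the 1 higher gene called at both ends, at -0.57 ± 0.11 in saline and 0.48 ± 0.11 at 72 h. These 4 genes had adjusted p-values of 0.00293 each by limma and saline shares of 38.5 to 54.3%.

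The mitotic kinase Melk had an interaction of 2.77 ± 0.55 and Iqgap3, a scaffold protein of dividing cells, 2.73 ± 0.59. After normexp they were 1.55 and 1.25, neither called. Both were dim: Iqgap3 was well above background on 2 of the 4 wild type arrays at 72 h and Melk on 3. Among the other called genes, named after their values were seen, were Exo1, Dscc1 and Cdca5 of replication, repair and cohesion, with interactions of 2.34, 2.13 and 1.71. Uhrf1, which maintains DNA methylation at replication forks, had 2.15. The mitosis genes Trip13, Anln, Ncaph, Kif20a and Tpx2 had 1.72, 1.92, 1.62, 1.69 and 2.37. Melk was called in 5 and Iqgap3 in 4 of the 16 analyses that left out 1 array. For Exo1, Dscc1, Cdca5 and Uhrf1 these counts were 4, 7, 5 and 12. For Trip13, Anln, Ncaph, Kif20a and Tpx2 they were 10, 7, 3, 2 and 4. A second Tpx2 probe gave 0.55 with an unadjusted p of 0.364 (limma), so that call rests on the probe used. The other 2 Ccnb1 probes gave 2.0 and 0.87. For Pilra, described with the leukocyte genes, the other probes gave 0.93 and 2.51. Second probes for Mki67 and Loxl4 gave 2.87 and 2.20.

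**Figure D4:**
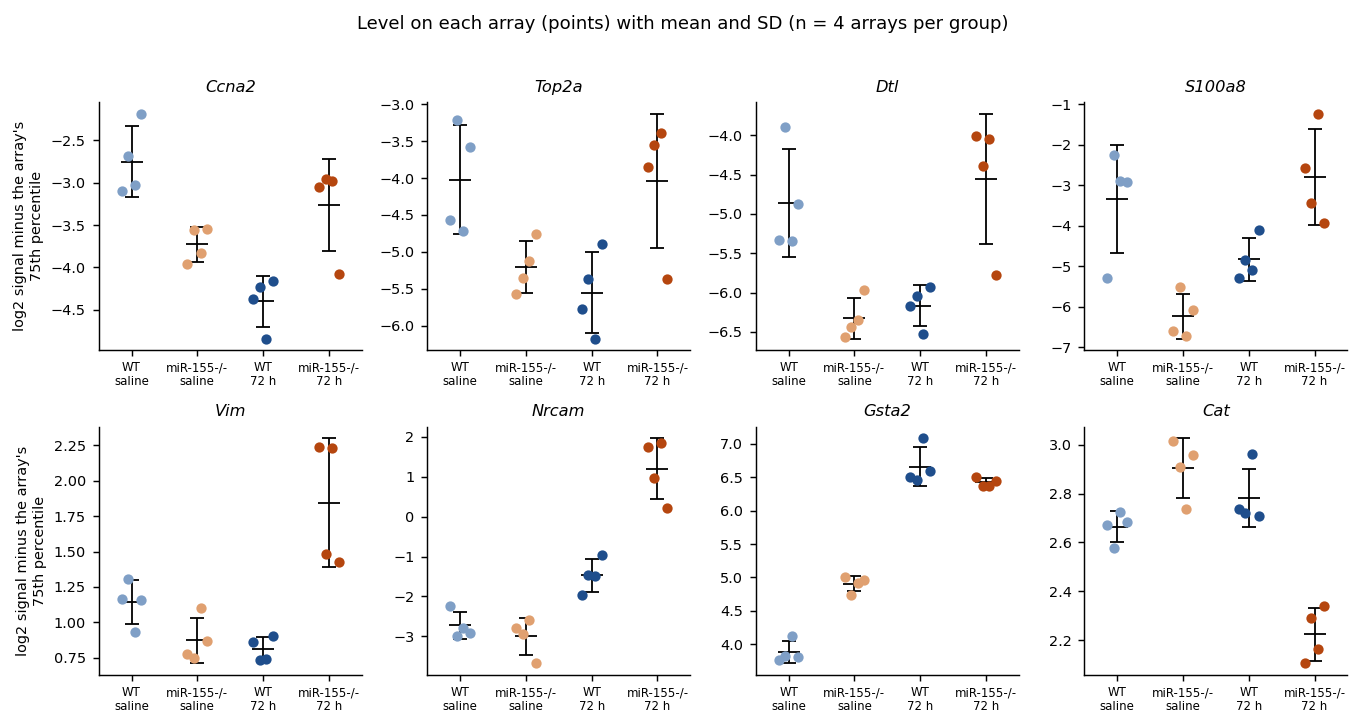
Level on each array (log2 signal minus the array's 75th percentile) for 8 genes in the 4 groups; points are arrays, with the mean and SD of 4 arrays in black. Ccna2, Top2a, Dtl and S100a8 are low in miR-155-/- saline and wild type 72 h. Vim and Nrcam are highest in miR-155-/- 72 h, and Nrcam is also above its saline levels in wild type 72 h. Gsta2 differs between the genotypes in saline only, and Cat is lowest in miR-155-/- 72 h.

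Promoters of cell cycle genes commonly carry CCAAT boxes, bound by NF-Y, together with a cell cycle homology region. The 250 bases before the start are shown for the called list members that the RefSeq promoter table held, because these genes moved together: Top2a (chr11:99024190-99024439), Ccnb1 (chr13:100786487-100786736) and Mki67 (chr7:135716380-135716629), all on the minus strand of GRCm38.p6. Capitals mark CCAAT or its complement ATTGG, and the homology region words TTTGAA and TTCGAA with the complement TTCAAA.
Top2a: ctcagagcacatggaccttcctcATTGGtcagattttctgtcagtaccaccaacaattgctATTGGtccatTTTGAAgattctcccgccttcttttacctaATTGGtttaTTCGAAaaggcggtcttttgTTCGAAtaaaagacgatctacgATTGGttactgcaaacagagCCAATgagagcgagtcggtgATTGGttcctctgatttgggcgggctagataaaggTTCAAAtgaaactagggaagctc
Ccnb1: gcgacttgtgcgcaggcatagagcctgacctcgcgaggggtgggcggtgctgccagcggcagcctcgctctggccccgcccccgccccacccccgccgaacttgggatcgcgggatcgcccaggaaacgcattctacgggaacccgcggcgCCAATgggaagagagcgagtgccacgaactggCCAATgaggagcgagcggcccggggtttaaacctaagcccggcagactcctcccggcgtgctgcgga
Mki67: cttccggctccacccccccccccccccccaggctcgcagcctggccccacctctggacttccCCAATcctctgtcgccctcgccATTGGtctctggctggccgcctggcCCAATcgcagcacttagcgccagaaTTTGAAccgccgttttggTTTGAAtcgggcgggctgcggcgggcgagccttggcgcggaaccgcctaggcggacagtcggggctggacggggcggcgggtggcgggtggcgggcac
Top2a had 6 CCAAT boxes and 4 homology region words, Mki67 had 3 and 2, and Ccnb1 had 2 and 0. No base of the 3 sequences lay in more than 1 match. Searched on both strands over 300 bases, 16 of the 20 list genes with an entry held a CCAAT box (80.0%), against 42.3% of all tested genes with an entry. The homology region words were in 9 of the 20 (45.0%, against 17.1%). Of the 41 genes called higher, 28 had an entry, and 10 of these held a CCAAT box (35.7%, against 42.3% of all tested genes). The homology region words were in 6 of the 28 (21.4%, against 17.1%). The list was defined by function, and the shares are a description of its sequences, not of the interaction.

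S100a8 and S100a9, the subunits of the alarmin calprotectin made mainly by neutrophils and monocytes, had the largest interactions of all called genes. S100a8 stood at -5.30, -2.25, -2.89 and -2.93 in wild type saline and at -6.61, -5.52, -6.74 and -6.08 in miR-155-/- saline. At 72 h it stood at -5.29, -4.84, -5.10 and -4.10 in wild type and at -2.58, -3.43, -1.23 and -3.93 in miR-155-/-. The genotypes did not overlap at either time, with miR-155-/- the lower in saline and the higher at 72 h. S100a8 rose 10.9-fold in miR-155-/-, while its wild type response of -1.49 was not called. The interaction was 4.94 ± 0.97 (30.6-fold; adjusted p = 0.0255, limma), with a saline share of 58.6%. S100a9 had an interaction of 4.76 ± 0.91 (27.1-fold) and a share of 61.9%, the difference in saline being -2.95 ± 0.65 and at 72 h 1.81 ± 0.65. Neither gene was called in saline (adjusted p = 0.134 and 0.0753, limma) or at 72 h (0.186 and 0.221).

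Among 9 tested neutrophil markers, with a median interaction of 0.35, these were the 2 called members, beside 0.173% of all tested genes called higher. Neither was called without wild type saline array 2, miR-155-/- saline array 1, wild type 72 h array 1 or miR-155-/- 72 h array 1 or 3, and 1 of the 2 was called without miR-155-/- saline array 3 or wild type 72 h array 2 or 3. S100a8 was called in 8 and S100a9 in 11 of the 16 analyses that left out 1 array, and after normexp S100a9 alone was. In scan session 1 the S100a9 interaction was 3.15. Retnlg, a resistin-like protein of neutrophils, had an interaction of 4.92 ± 1.27 that was not called (adjusted p = 0.105, limma). The granule genes Mpo, Elane, Ltf and Camp had -0.07, 0.01, -0.38 and 0.35. Mean levels over the 9 markers were -3.71 to -2.13 in wild type saline, -4.29 to -3.60 in miR-155-/- saline, -3.51 to -2.96 in wild type at 72 h and -3.26 to -1.92 in miR-155-/- at 72 h. Ly6g, Ngp, Mmp8 and Mmp9 were not tested. Of 16 macrophage and monocyte markers 0 were called, with a median interaction of 0.83. At an unadjusted p under 0.05 there were 3, all higher, beside 4.65% of all tested genes. Called genes that leukocytes express include Ncf4, a subunit of the NADPH oxidase, with 1.73 ± 0.34, the phosphatase Ptpn7 with 1.91 ± 0.38 and the receptor Pilra with 2.08 ± 0.44, named after their values were seen. The part of leukocyte number in these values was not tested.

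Cytokines and chemokines leaned the same way without a call. Of 26 tested members 0 were called, and the median interaction was 1.09. An unadjusted p under 0.05 was found for 13, all higher, beside 4.65% of all tested genes. Ccl2, which recruits monocytes, rose by 3.62 on the log2 scale in miR-155-/- kidney, and its wild type response was 0.03. Its interaction of 3.60 ± 0.84 had an adjusted p of 0.0652, and that of the neutrophil attractant Cxcl5, 4.16 ± 1.04, one of 0.0863 (limma). Their genotype differences in saline were -2.15 and -2.74, neither called. Ccl2 in wild type saline ranged from -3.52 to -0.52, so its saline difference rests on arrays that spread widely.

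Vim, an intermediate filament that injured tubule cells take up, was the 1 called gene of 20 tubular injury markers. It was at 1.16, 1.31, 0.93 and 1.16 in wild type saline and at 0.78, 0.75, 1.10 and 0.87 in miR-155-/- saline. At 72 h it was at 0.86, 0.73, 0.74 and 0.91 in wild type and at 2.24, 1.49, 2.24 and 1.42 in miR-155-/-. The saline groups overlapped, and every miR-155-/- array at 72 h lay above every other array. Vim rose 1.97-fold in miR-155-/- kidney and its wild type response of -0.33 was not called, giving an interaction of 1.31 ± 0.28 (adjusted p = 0.0435, limma) and a saline share of 20.6%. Of the list, 19 of 20 members had an interaction above 0, with a median of 1.31. An unadjusted p under 0.05 was found for 10, all higher, beside 4.65% of all tested genes. All 20 rose in miR-155-/- kidney and 14 rose in wild type, beside 17.7% and 12.5% of all tested genes. The median genotype difference was -0.13 in saline and 0.97 at 72 h.

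The clinical injury markers themselves were not called. Havcr1, or Kim-1, rose 53.9-fold in wild type and 174-fold in miR-155-/- (interaction 1.69 ± 0.90, adjusted p = 0.714, limma). Lcn2, or NGAL, rose 42.2-fold and 101-fold, with an interaction of 1.26 ± 0.96 that was not called. The interactions of Clu and Spp1 were 0.73 ± 0.30 and 0.62 ± 0.33. In each of these 4 genes the share owed to saline was 11.3 to 23.2%. The interactions of Havcr1, Lcn2 and Spp1 are not precise enough to tell a 2-fold difference from 0.

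Nrcam, an immunoglobulin-type cell adhesion molecule, had the largest interaction among the 4 genes with a saline share below 25%. Its levels were -2.23, -2.98, -2.78 and -2.91 in wild type saline and -2.79, -2.95, -2.59 and -3.67 in miR-155-/- saline. At 72 h they were -1.96, -1.46, -1.49 and -0.95 in wild type and 1.75, 0.98, 1.85 and 0.21 in miR-155-/-. The saline groups overlapped and the 72 h groups did not. Nrcam rose 2.39-fold in wild type and 18.4-fold in miR-155-/-, an interaction of 2.94 ± 0.64 (adjusted p = 0.0435, limma), of which saline supplied 9.41%. Angptl7, a secreted angiopoietin-like protein, was at -2.64, -2.10, -1.83 and -1.72 in wild type and at -0.14, -0.17, -0.12 and -1.18 in miR-155-/- at 72 h, again with no overlap. It fell by 0.99 (log2) in wild type and rose by 0.87 in miR-155-/-, with an interaction of 1.86 ± 0.40 and a share of 10.3%. Rmdn2, a microtubule regulator, had 0.91 ± 0.19 and a share of -3.73%. As genes with a called interaction and a small saline share differ mostly at 72 h, calls there are no separate evidence. Vim, Angptl7, Nrcam and Rmdn2 all had a called genotype difference at 72 h, of 1.04, 1.67, 2.67 and 0.95. Their interactions were called in 4, 2, 2 and 5 of the 16 analyses that left out 1 array.

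Loxl4 and S100a4 were among the 10 named genes with the smallest p. Loxl4, a lysyl oxidase that crosslinks collagen, fell by 1.22 (log2) in wild type and rose by 1.47 in miR-155-/-. Its 72 h arrays lay between -5.21 and -4.83 in wild type and between -3.51 and -3.16 in miR-155-/-, and its interaction was 2.69 ± 0.45 with a share of 39.7% (adjusted p = 0.0053, limma). S100a4, found in fibroblasts and leukocytes, was at -1.0, -1.07, -1.32 and -1.38 in wild type and at 0.06, -0.36, 0.03 and -0.18 in miR-155-/- at 72 h, with no overlap. It fell by 0.66 (log2) and rose by 0.93, for an interaction of 1.59 ± 0.25 and a share of 32.2%. Of 20 fibroblast and matrix genes 0 were called, with a median interaction of 0.75. At an unadjusted p under 0.05 there were 8, all higher, beside 4.65% of all tested genes.

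Among the genes with a lower interaction, Gsta2, a glutathione transferase that conjugates electrophiles and an Nrf2 target, was higher in miR-155-/- than in wild type kidney after saline. It was at 3.77, 3.82, 4.13 and 3.81 in wild type saline and at 5.0, 4.74, 4.92 and 4.96 in miR-155-/- saline. At 72 h it was at 6.5, 6.45, 7.08 and 6.60 in wild type and at 6.51, 6.37, 6.38 and 6.44 in miR-155-/-. The saline groups were fully apart and the 72 h groups overlapped. Gsta2 rose 6.85-fold in wild type and 2.86-fold in miR-155-/-, an interaction of -1.26 ± 0.20 (adjusted p = 0.00305, limma). The saline difference of 1.02 ± 0.14 was called (adjusted p = 0.000305) and supplied 81.3% of it, while at 72 h the difference of -0.24 ± 0.14 was not called. Gm10639, a predicted glutathione transferase gene closely like Gsta2, gave -1.17 ± 0.20 and a share of 88.2%. As their probes may read each other's transcripts, these count as 1 observation. Of the 20 tested Nrf2 and glutathione genes, Gsta2 alone was called, beside 0.211% of all tested genes, and the list's median was -0.17.

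Msmp, a microseminoprotein, was the gene most fully owed to saline. It was at -2.94, -3.67, -3.53 and -3.69 in wild type saline and at -1.85, -2.58, -2.02 and -1.77 in miR-155-/- saline. The 72 h arrays lay between -4.98 and -4.81 in wild type and between -5.30 and -4.72 in miR-155-/-, so the genotypes were apart in saline and overlapped at 72 h. The interaction was -1.55 ± 0.30 (adjusted p = 0.0255, limma), with a share of 90.4%, and -0.74 after normexp, not called. Msmp fell in both genotypes, and the 72 h difference of -0.15 ± 0.22 was not called.

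Cat, catalase of the peroxisome, was the lower gene that owed least to saline. It was at 2.67, 2.58, 2.73 and 2.68 in wild type saline and at 3.02, 2.91, 2.74 and 2.96 in miR-155-/- saline. At 72 h it was at 2.74, 2.72, 2.96 and 2.71 in wild type and at 2.10, 2.29, 2.16 and 2.34 in miR-155-/-. The genotypes were apart at both times, by little in saline. Cat fell by 0.68 (log2) in miR-155-/- while its wild type response of 0.12 was not called, for an interaction of -0.80 ± 0.17 (adjusted p = 0.0435, limma) and a share of 30.1%. A second Cat probe gave -0.59. Prnp, the prion protein gene, rose 1.98-fold in wild type and 1.41-fold in miR-155-/- (interaction -0.49 ± 0.10). Nanp, a phosphatase of sialic acid synthesis, fell by 0.25 and by 0.85 on the log2 scale (interaction -0.60 ± 0.12). Cat, Prnp and Nanp were called in 3, 6 and 7 of the 16 analyses that left out 1 array.

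Among genes of the DNA damage response, the p53 targets had no called interaction, whereas Rad51ap1 and Exo1 of DNA repair, described above, were called. Of 31 p53 target genes 0 were called and 0 had an unadjusted p under 0.05 (7.57% of all genes), and the median was 0.12. Cdkn1a, the cell cycle inhibitor p21, was at -2.0, -1.93, -1.75 and -1.46 in wild type saline and -2.28, -2.26, -1.82 and -2.07 in miR-155-/- saline. At 72 h it was at 2.49, 2.96, 2.89 and 3.1 in wild type and 3.12, 3.1, 3.14 and 2.66 in miR-155-/-. The genotypes overlapped at both times. Cdkn1a rose 25.1-fold and 34.6-fold, with an interaction of 0.46 ± 0.41. The interactions of Mdm2, which degrades p53, the stress hormone Gdf15, the AP-1 genes Fos and Atf3 and the haem oxygenase Hmox1 were 0.12 ± 0.20, 0.28 ± 0.30, 0.12 ± 0.71, 0.51 ± 0.67 and 0.33 ± 0.46. With these standard errors the interactions of Cdkn1a, Fos, Atf3 and Hmox1 are not precise enough to tell a 2-fold difference from 0.

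Proximal tubule genes lay on the other side. None of 30 was called, and 9 had an unadjusted p under 0.05, all lower, beside 2.92% of all tested genes. Every one of the 30 had an estimate below 0, with a median of -0.55. Slc13a3, the dicarboxylate transporter, fell by 1.01 (log2) in miR-155-/- and had a wild type response of 0.02, and its interaction of -1.03 ± 0.30 had an adjusted p of 0.172 (limma). The organic anion transporter Slc22a6 had -0.65 ± 0.19. The list's median genotype difference was 0.07 in saline and -0.52 at 72 h. In the distal list, Egf, the growth factor of the thick limb and distal tubule, had the largest estimate, -1.55 ± 0.40 (adjusted p = 0.103, limma). Of 28 published miR-155 target genes 0 were called, and the median was -0.01. An unadjusted p under 0.05 was found for 1 higher and 1 lower, beside 4.65% and 2.92% of all tested genes.

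**Figure D5:**
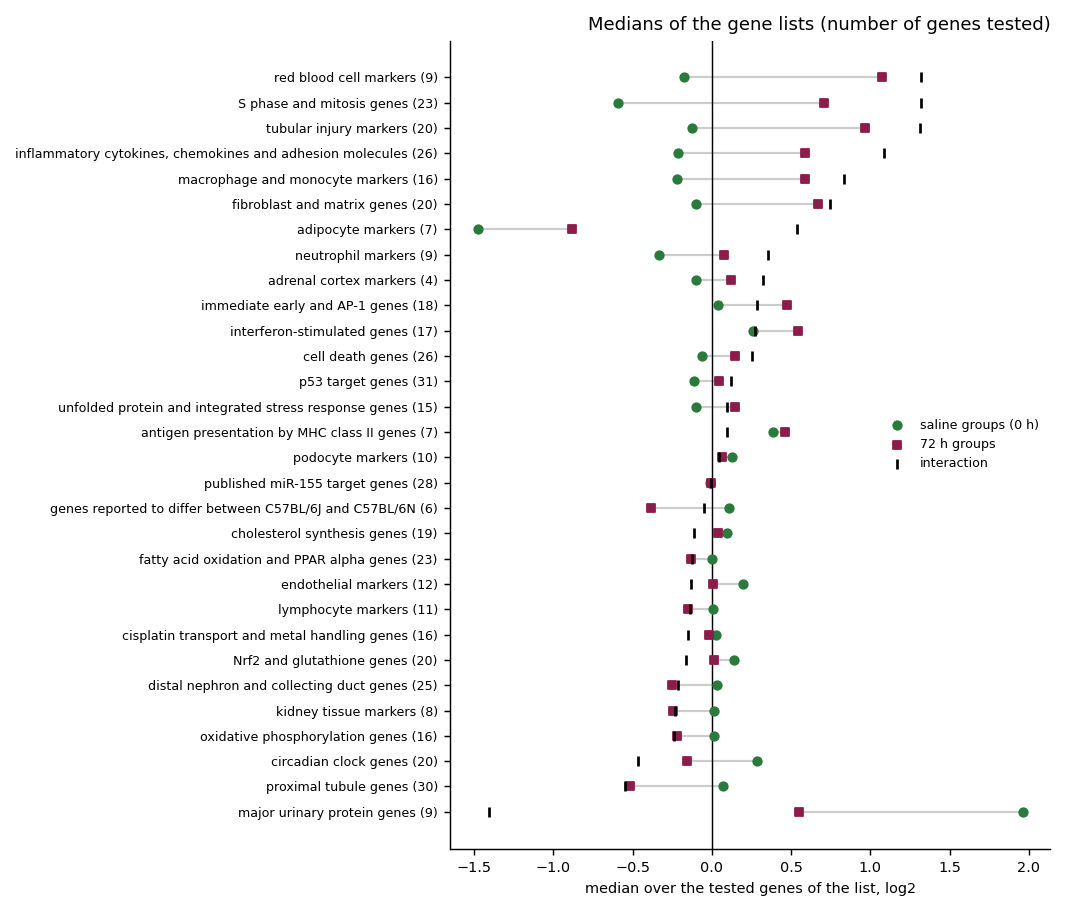
Median over the tested genes of each of 30 gene lists of the genotype difference in saline (circles), the genotype difference at 72 h (squares) and the interaction (ticks), log2, miR-155-/- minus wild type; the number of genes is in parentheses. For S phase and mitosis genes both ends are away from 0 (-0.59 and 0.71), for tubular injury markers (-0.13 and 0.97) and proximal tubule genes (0.07 and -0.52) the 72 h end is, and lists at the top and bottom with few genes, such as those of red blood cells and major urinary proteins, had 0 called genes.

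The scan sessions and slides are subsets of the arrays on which the 50 genes were chosen, so the direction there was largely set by that choice and is given as a description. All 50 interactions kept their sign in scan session 1 alone and in session 2 alone. Estimates within a session rest in part on single arrays: the saline arrays in session 1 and the wild type 72 h array in session 2. Within the sessions the interaction was 2.34 and 1.65 for Ccna2, 3.39 and 4.94 for S100a8, 3.57 and 2.17 for Nrcam and -1.47 and -1.15 for Gsta2. In 3 slides that held both genotypes at 72 h, 49 of the 50 genes had all 3 pairs on the side of the interaction, and in 3 slides with both saline groups, 45 had all 3 on the other side. Of the 50 genes, 12 were called whichever of the 16 arrays was left out, 10 of them with a symbol: Rad51ap1, Lmnb1, Cenph, S100a4, Pole, Ccna2, Loxl4, Dtl, Gsta2 and Gm10639. With all arrays but after normexp background correction, 4 of the 50 were still called, so most of these genes lost their call there. The number called was 160 without miR-155-/- 72 h array 4 and 100 without wild type saline array 1. It was 12 or 13 without wild type 72 h array 1, miR-155-/- 72 h array 1, miR-155-/- 72 h array 3 or wild type saline array 2. It was 16 or 30 without array 1 or 3 of miR-155-/- saline, 23 or 17 without array 2 or 3 of wild type at 72 h, and 20 without miR-155-/- 72 h array 2.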

How the data were processed

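RNA of 32 kidneys was hybridised to 1-colour Agilent 4x44k version 2 arrays. Per the file headers, the deposited processed signal is a linear intensity made by Feature Extraction 10.7.3.1, with background subtraction; the authors' deposited value table, an intensity too, was the same signal scaled per array. Here log2 of the deposited intensity was taken, the array's 75th percentile subtracted, flagged outlier spots left out and spots of a probe averaged. Symbols came through the transcript accession from RefSeq (GRCm38.p6); 27234 of 39429 probes had 1. The brightest probe stood for a gene, if well above background on all 4 arrays of any of the 8 groups; 2 of the 50 called genes, Melk and Iqgap3, were not well above background on every array of the 4 groups.

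limma 3.58.1 in R 4.3.3 (trended eBayes) fitted 8 group means over 32 arrays, with 24 residual degrees of freedom. Tests were 2-sided, Benjamini-Hochberg adjusted per comparison, and called under 0.05. Errors given with ± are standard errors from limma, over 4 arrays a group. Genes named, among those with a symbol only, are the 10 called with the smallest p, the 8 largest called interactions each way (6 lower genes had a symbol), up to 4 called genes per class of saline share and per list, 10 injury and stress genes, and others said to be chosen after their values were seen. The members and lists were chosen with earlier results of these data known. Replicate numbers do not pair the arrays. On simulated data for the interaction over 23743 genes, 40 of 100 2-fold and 82 of 100 4-fold changes were called, with 8 false calls. The simulated errors were independent between arrays, whereas real arrays of a slide deviated together, so these rates need not hold for the real data. Alternatives were other background corrections, scalings, filters, probe rules, spread models, slide, session and replicate blocks, and arrays left out. Normexp used the median signal; the mean signal was not used here. The result for 1 called gene is not reported here.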

Additional observations from a re-analysis of the deposited data

Results flagged for a closer look

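Within groups of 4 arrays, 12 of 140 gene and group combinations held an array far from the other 3; about 1 in 20 is flagged by chance. In miR-155-/- at 72 h it was array 4 in 8 of them. That array was at -4.07 for Ccna2, -6.38 for Melk, -7.50 for Iqgap3 and -3.26 for Mki67, all below the other 3. It was also below them for Rmdn2 (-3.22), Angptl7 (-1.18), Cdkn1a (2.66) and Atf3 (0.48). In wild type saline, array 3 was above the others for Gsta2 (4.13) and Hmox1 (1.23). In wild type at 72 h, array 3 was above the others for Cat (2.96) and Mdm2 (5.14). The cause was not tested.

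The genotypes' responses differed by the test of the interaction for the following genes. The interaction (log2) was 2.07 for Rad51ap1, 1.05 for Lmnb1, 2.34 for Cenph, 1.59 for S100a4, 1.21 for Pole and 2.11 for Ccna2. It was 2.69 for Loxl4, 3.08 for Dtl, 4.94 for S100a8, 4.76 for S100a9, 2.94 for Nrcam and 2.77 for Melk. It was 2.73 for Iqgap3, 2.70 for Top2a, 1.88 for Ccnb1, 2.24 for Mki67, 0.91 for Rmdn2, 1.31 for Vim and 1.86 for Angptl7. It was -1.26 for Gsta2, -1.17 for Gm10639, -1.55 for Msmp, -0.80 for Cat, -0.60 for Nanp and -0.49 for Prnp.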

How the results depend on the processing

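Every one of the 50 called interactions that could be tested kept its sign under all 34 alternatives. Most alternatives reuse the arrays that chose the genes, so this is a description. The size moved by over 1.5 times after normexp for Cenph (1.52), Loxl4 (1.75), Dtl (1.81), Melk (1.55), Iqgap3 (1.25) and Msmp (-0.74), with the mean of probes for Pole (0.63), in session 1 for S100a9 (3.15), and in session 2 for Iqgap3 (1.64), Top2a (1.76), Nanp (-0.40) and Angptl7 (1.16). The number called, 50 in the main analysis (41 higher, 9 lower), changed far more. It was 153 with the slide as a fixed block (134 higher, 19 lower), 212 with it as a random block (188 and 24) and 1500 from paired differences within slides (952 and 548). It was 4 after normexp (3 and 1), which moved the median of all genes to 0.16, 101 after quantile normalization (90 higher), and 45 after median centring (5 lower). It was 32 with no filter on dim probes (26 higher), 672 from the 16 arrays alone (446 and 226) and 1120 with array weights (765 and 355), so the split of higher and lower calls moved as well. Session 1 alone gave 3, 3 higher and 0 lower. Session 2 alone gave 0, 0 and 0 by limma, with 265 genes at an unadjusted p under 0.05. Without wild type saline array 2 and miR-155-/- 72 h array 4 together there were 83 (78 and 5). Leaving out 1 array gave 12 to 160 (9 to 145 higher, 3 to 15 lower).

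The replicate block gave 30 (25 and 5). The replicate numbers do not pair the arrays: deviations of same-numbered arrays correlated at -0.55 to 0.53, median 0.02, and 4 of 16 arrays correlated best with their own number. Same-slide arrays deviated together (median 0.30 over 10 pairs).

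The median saline share, 45.7%, was 38.0% within slides, 30.1% after normexp, 41.7% with array weights, 32.1% in session 1, 59.3% in session 2, 36.1% without both arrays and 41.0 to 49.0% with 1 array left out. Wild type calls were 3031 after normexp, 9347 from 16 arrays, 12541 with weights and 2739 and 723 in the sessions. miR-155-/- calls were 4772 after normexp and 5383 and 2574 in the sessions. Saline genotype calls were 51 with the random slide block, 9 after normexp, 41 after quantile normalization, 55 from 16 arrays, 137 with weights, 17 and 0 in the sessions, 17 without both arrays and 16 to 60 with 1 left out. Genotype calls at 72 h were 259 and 411 with slide blocks, 3086 within slides, 63 after normexp, 1768 from 16 arrays, 3368 with weights, 1 in session 2, 355 without both arrays and 42 to 360 with 1 left out.

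Genes not called changed sign in 5 cases: Mdm2 after normexp (-0.000919) and in session 1 (-0.10), Gdf15 (-0.051) and Hmox1 (-0.041) in session 2, and Fos without miR-155-/- saline array 2 (-0.037; up to 0.43 with another array left out). Lcn2 was called within slides and from 16 arrays. The cause was not tested.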

Other observations

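Clock genes were not described above. Of 20, 0 were called, and 5 had an unadjusted p under 0.05, all lower, beside 2.92% of all tested genes. The median interaction was -0.47, and the median genotype difference was 0.28 in saline and -0.16 at 72 h. Per2, a repressor of the clock, had -1.15 ± 0.33 (adjusted p = 0.172, limma) and its saline difference was 0.96. The hour of the day at which the kidneys were taken was not analysed here. Of 16 respiratory chain genes 0 were called, with a median of -0.24. At an unadjusted p under 0.05, 6 were lower, beside 2.92% of all tested genes. Red blood cell markers had a median interaction of 1.32 with 0 of 9 called, and Hbb-bt, a beta globin, had 2.56 ± 1.79. In the cell death list Ripk3, a kinase of necroptosis, had 1.93 ± 0.53 (adjusted p = 0.134, limma) and rose by 2.45 on the log2 scale in miR-155-/- kidney. Slide and session were batches that the labels do not mention but the file headers give.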
